A study of Mus musculus with 15 samples.

Results

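The 48 genes described here encode the proteins that license replication origins, unwind and copy DNA, join Okazaki fragments, make deoxynucleotides (dNTPs), assemble chromatin behind the fork and protect a stalled fork. They were taken from a list of symbols by function, by a rule that reads no measured value, with earlier results of these data known. All 48 were among the 27019 gene rows of the count table, and all 48 passed the filter on low counts that left 16057 genes for testing. The study sequenced poly(A) RNA of CD8+ T cells from the spleen of C57BL/6 mice aged 8 to 10 weeks. The mice were of the OT-I line, whose transgenic T cell receptor recognises the ovalbumin peptide OVA257-264, and this receptor was shared by all 4 groups. Wild-type (WT) and Susd2-/- cells were compared when untreated (day 0) and after 3 days of splenocyte stimulation with the peptide (day 3), with 2 libraries in each group. The cells were enriched with a bead kit, so other spleen cells can remain, and the day 3 cells came from stimulated whole splenocytes. Whether the 2 libraries of each group are from different mice is not stated in the labels, so a p-value here reflects library-to-library spread that may be technical only.

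DNA replication is prepared in G1, when the origin recognition complex with Cdc6 and Cdt1 loads the ring of Mcm2 to Mcm7 proteins onto DNA as an inactive helicase. The Dbf4-dependent kinase Cdc7 and cyclin-dependent kinases then convert it, with Cdc45 and the GINS complex, into the active helicase that opens the fork in S phase. Resting naive T cells are in G0, and antigen drives them into rapid division. Many replication genes are textbook targets of E2F transcription factors, which the retinoblastoma family holds in check in resting cells.

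Promoter stretches are shown first because their E2F-type letters are a feature that the choice of genes did not use. RefSeq windows of GRCm38.p6, from 250 bases before to 50 bases after the start site, were matched by symbol for 40 of the 48 genes. They were searched on both strands for the letters TTTCCCGC, TTTGGCGC, TTTGCCGC and TTTCGCGC, and matches may overlap, as in Mcm5. Each stretch is printed 5′ to 3′ on the strand of the gene, with the matched letters in capitals (in the 30-base stretches the central match only). The first 3 lie upstream of the RefSeq start site and outside annotated exons. That of Cdc6 falls in an intron of the longer GENCODE gene model, which starts at position 98907801. The others are 30 bases around a match. For Mcm3, Lig1 and Clspn this match lies after the start site, at 19, 26 and 21 bases. The other windows of Lig1 had no match. The first 6 belong to genes that were higher in Susd2-/- cells at day 0 and the last 2 to genes that did not pass the test there. Pola1, which did not pass it either, also had a match upstream and outside exons, which is not shown.
Cdc6, chr11:98907983-98908050, plus strand: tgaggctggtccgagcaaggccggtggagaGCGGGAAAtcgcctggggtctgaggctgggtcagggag
Mcm5, chr8:75109326-75109397, plus strand: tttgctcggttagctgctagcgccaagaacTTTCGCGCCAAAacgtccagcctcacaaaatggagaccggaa
Mcm6, chr1:128359715-128359845, minus strand: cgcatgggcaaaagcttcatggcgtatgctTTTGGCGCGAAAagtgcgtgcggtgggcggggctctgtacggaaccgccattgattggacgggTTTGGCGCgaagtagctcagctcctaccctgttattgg
Mcm3, chr1:20820275-20820304, minus strand: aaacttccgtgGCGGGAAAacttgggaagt
Lig1, chr7:13278841-13278870, plus strand: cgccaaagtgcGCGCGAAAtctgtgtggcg
Clspn, chr4:126556990-126557019, plus strand: accgcgtctggGCGCGAAAgctcgaacttc
Orc1, chr4:108579416-108579445, plus strand: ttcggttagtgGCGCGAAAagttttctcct
Rfc3, chr5:151651200-151651229, minus strand: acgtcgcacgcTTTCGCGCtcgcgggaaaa

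The E2F-type letters were in a window of 14 of the 40 genes (35.0%), against 704 of 27025 genes of the RefSeq table (2.60%) and 493 of 10581 tested genes with a window (4.66%). Among members higher in Susd2-/- cells at day 0 they were in 8 of 15, namely Cdc6, Cdt1, Clspn, Lig1, Mcm3, Mcm5, Mcm6 and Pold1. The other higher members with a window, Cdc45, Dbf4, Mcm2, Mcm10, Prim1, Rrm2 and Tyms, had none, nor had Rpa3, which was lower. Among members not called there they were in 6 of 24, namely Gins3, Mcm7, Orc1, Pola1, Pole2 and Rfc3. A set of 20 mitosis genes used for comparison differed in its letters: E2F-type letters were in 1 of its 16 genes with a window. The letters TTTGAA are those of the CHR element, which many mitosis promoters carry. They were in 11 of those 16 mitosis genes (68.8%) and in 7 of the 40 replication genes (17.5%). Of all genes 20.2% had them, and of tested genes with a window 14.8%. The CCAAT box, bound by NF-Y, was in 24 of the 40 replication genes (60.0%) and in 14 of the 16 mitosis genes (87.5%). Of all genes 41.1% had it, and of tested genes with a window 42.9%. These matches are a description of letters, with no test, and say nothing of binding in these cells.

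**Figure D1:**
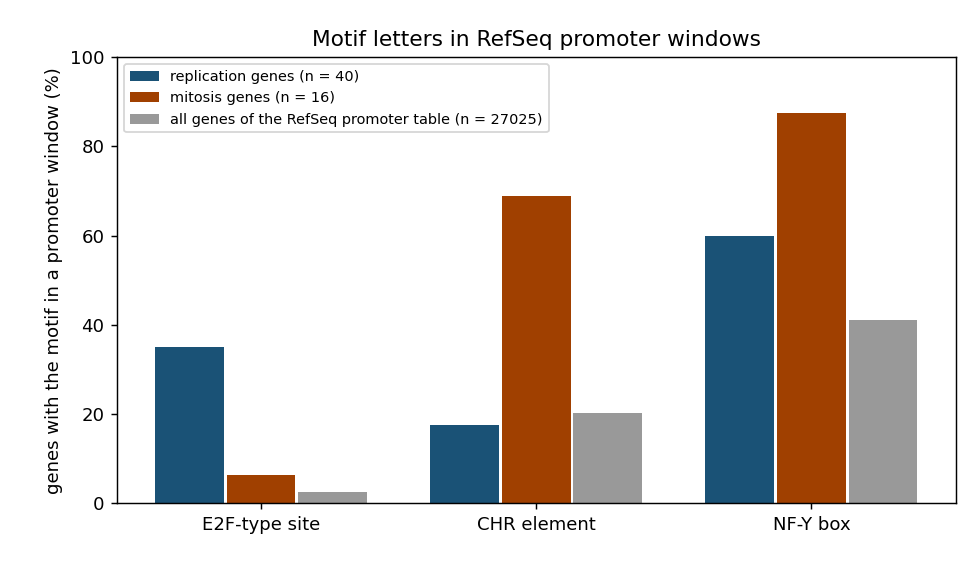
Share of genes with each set of motif letters in a RefSeq promoter window, in percent, for the 40 replication genes, the 16 mitosis genes and the 27025 genes of the table. The E2F-type letters are at 35.0% in replication genes and 6.25% in mitosis genes, and the order is turned around for the CHR letters, at 17.5% and 68.8%.

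Library totals ran from 26829807 to 53846911 counts. Susd2, the deleted gene, had 90 and 80 counts in the WT day 0 libraries against 1 and 3 in the Susd2-/- day 0 libraries, and 16 and 10 against 0 and 2 at day 3, which is the order the labels give. Marker lists are given as levels summed over the listed genes. In the day 0 libraries 8 CD8 T cell markers summed to 4416 to 4909 CPM, and 8 B cell markers to 19.5 to 23.7 CPM. The 10 monocyte and macrophage markers summed to 52.1 and 53.6 CPM in WT and to 112 and 106 CPM in Susd2-/- libraries. Transcripts of other cells were thus present, and the other lists are given below. Levels are CPM, counts scaled by the TMM-adjusted library total, and differences are log2 fold changes with standard errors (SE) from edgeR's quasi-likelihood test. A gene is called when its Benjamini-Hochberg adjusted p over all 16057 genes is below 0.05. The comparisons share libraries with each other, so their values are set side by side and no agreement between them is counted as support.

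The whole replication set was higher after stimulation. All 48 genes rose from day 0 to day 3 in WT cells and all 48 in Susd2-/- cells by edgeR's quasi-likelihood test, and in both genotypes each gene had both of its day 3 libraries above both of its day 0 libraries. Of all genes tested, 36.2% were called higher in WT and 36.7% in Susd2-/- cells, and 41.4% and 41.8% had such libraries above. The members' median rise was 2.54 on the log2 scale in WT, a 5.82-fold rise, and 2.44 in Susd2-/- cells, a 5.46-fold rise, beside all-gene medians of -0.14 and -0.12. The rise was at least 8-fold for 19 members in WT and 16 in Susd2-/- cells, where 6.02% and 5.22% of all genes rose as much. The set's share of all counts went from 0.199% to 0.201% in the WT day 0 libraries to 0.994% to 1.02% in the WT day 3 libraries.

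Before stimulation a subset of the genes was higher in Susd2-/- cells. At day 0, 17 of the 48 were higher and 1, Rpa3, was lower by edgeR's quasi-likelihood test, where 11.5% of all genes were called higher and 12.1% lower. With the 2 libraries of each day 0 group summed and counted as 1, so that the spread came from the day 3 libraries alone, 7 were higher and 1 lower. The calls of Cdt1, Mcm2, Mcm3, Mcm4, Mcm5, Mcm6, Cdc45, Pold1, Pole, Prim1 and Tyms were then lost (edgeR adjusted p from 0.0674 to 0.5). The median difference was 0.17 on the log2 scale beside 0.01 over all genes tested. Both Susd2-/- libraries exceeded both WT libraries for 30 members (33.6% of all genes) and lay below both for 10 (31.4% of all genes). Summed over the 48 genes, WT cells held 1907 and 1890 CPM and Susd2-/- cells 2131 and 2082 CPM, a ratio of 1.11 with no overlap of the libraries.

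At day 3 no genotype difference was detected on these genes. No member was called higher or lower at day 3 by edgeR's quasi-likelihood test, none had an unadjusted p under 0.05 and DESeq2 called none, where 0.137% of all genes were called in either direction. Estimates ran from -0.22 for Chaf1a to 0.16 for Orc2 on the log2 scale, with a median of 0.04. The 95% confidence interval lay within 0.5 of no change on the log2 scale for 47 of the 48 genes, the exception being Chaf1a. These intervals rest on a spread fitted over all 8 libraries, with a coefficient of variation of 8.09%. It was 5.38% for the day 0 libraries and 10.2% for the day 3 libraries taken apart. The day 3 intervals may therefore be too narrow, and a difference is harder to detect at day 3 than at day 0. Both Susd2-/- libraries exceeded both WT libraries for 10 members (17.4% of all genes) and lay below both for 5 (16.3% of all genes). Among the 17 genes that were higher at day 0, the day 3 estimates ran from -0.11 to 0.13.

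The difference between days was itself tested as the interaction of genotype and day. Of all genes, 6.88% were called lower and 6.60% higher in the interaction. By edgeR's quasi-likelihood test 13 members had a lower log2 difference of Susd2-/- over WT at day 3 than at day 0. Rpa3 alone had a higher one, with -0.60 at day 0 and 0.05 at day 3. With the day 0 libraries counted as 1 these counts were 5 and 0. The same test reads equally as a smaller rise on stimulation in Susd2-/- cells for those 13 genes. All 14 were also called for genotype at day 0, from the same day 0 libraries, while Mcm4, Mcm6, Cdc45 and Prim1 were called at day 0 and not in the interaction. The members' median interaction was -0.14 on the log2 scale beside -0.01 over all genes.

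**Figure D2:**
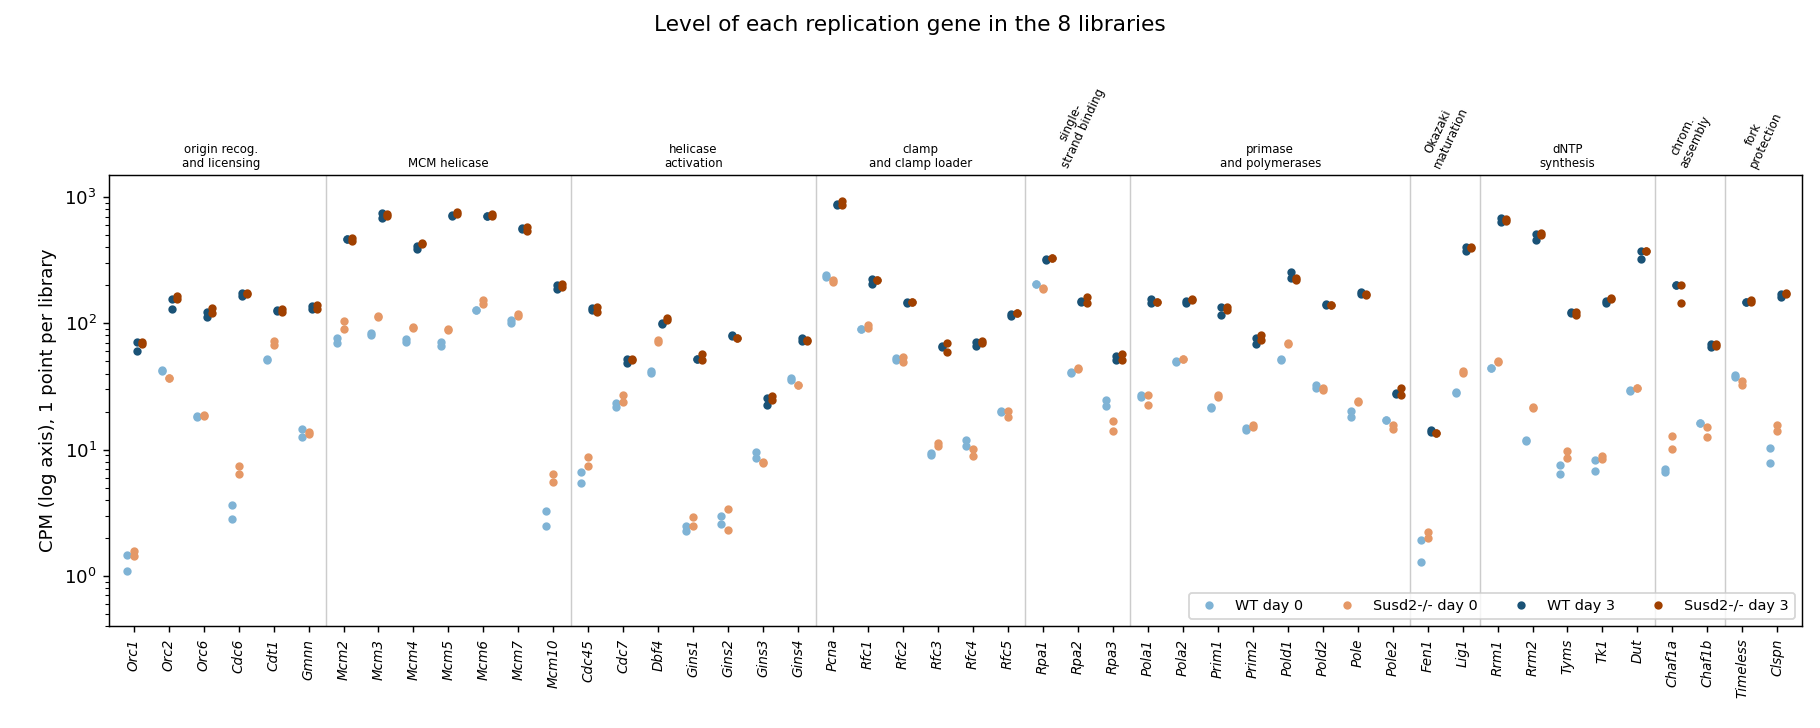
Level of each of the 48 genes in CPM on a log axis, 1 point per library, grouped by role, with WT and Susd2-/- libraries of day 0 in light and of day 3 in dark colours. All day 3 points of a gene lie above its day 0 points, and the genotypes are apart at day 0 for genes such as Cdc6, Mcm10, Dbf4, Rrm2 and Rpa3.

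**Figure D3:**
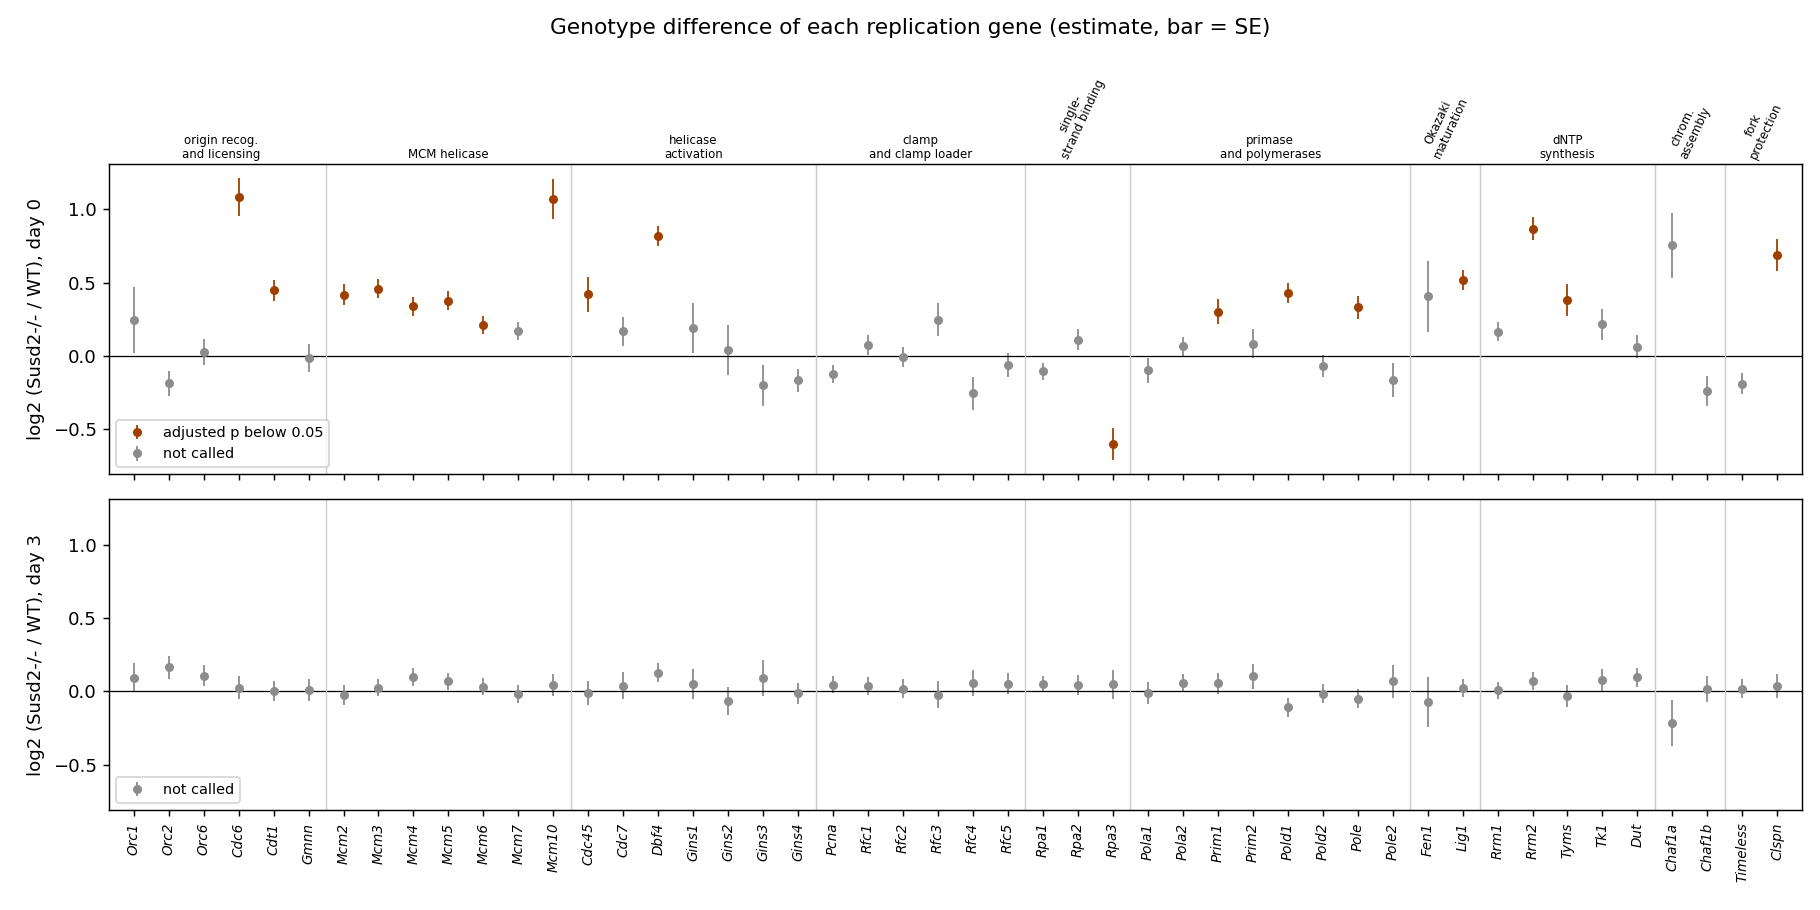
Genotype difference of each gene as log2 of Susd2-/- over WT at day 0 (upper panel) and day 3 (lower panel), with bars of 1 SE and called genes in colour. At day 0, 17 genes are called above 0 and Rpa3 below it, while at day 3 every estimate lies between -0.22 and 0.16 and none is called.

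Origin recognition and licensing genes were split. Cdc6, an ATPase that recruits the helicase to origins, was at 3.66 and 2.80 CPM in the WT day 0 libraries and at 6.36 and 7.42 CPM in the Susd2-/- day 0 libraries, then at 174 and 164 CPM against 171 and 174 CPM at day 3. Both Susd2-/- libraries were above both WT libraries at day 0 and the genotypes overlapped at day 3. The day 0 difference of Cdc6 was 1.08 ± 0.13 on the log2 scale (SE, edgeR adjusted p = 8.6e-06), the largest of the set, and its interaction was -1.06 (adjusted p = 0.000153). Cdt1, which delivers the Mcm ring to the origin, was at 51.7 and 51.5 CPM in WT and 72.9 and 67.7 CPM in Susd2-/- cells at day 0, and at 122 to 131 CPM in the 4 day 3 libraries. Its day 0 difference was 0.45 ± 0.07 on the log2 scale (SE, edgeR adjusted p = 0.000154), with no overlap of the groups. Geminin (Gmnn), the inhibitor of Cdt1, was at 12.5 to 14.6 CPM in all 4 day 0 libraries, a difference of -0.01 that was not called.

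Orc1, Orc2 and Orc6, the origin recognition complex subunits among the 48 genes, did not pass the test at day 0. Orc1 was at 1.09 and 1.47 CPM in WT and 1.58 and 1.44 CPM in Susd2-/- cells at day 0, so the groups overlapped, and it reached 59.9 to 71.5 CPM at day 3, a rise of 5.68 in WT on the log2 scale. Orc2 was at 42.5 and 41.5 CPM in WT and 36.7 and 37.2 CPM in Susd2-/- cells at day 0, and at 156 and 129 CPM against 154 and 165 CPM at day 3. Its day 0 estimate of -0.19 was not called (edgeR adjusted p = 0.128). Orc6 was at 18.2 to 18.7 CPM in all 4 day 0 libraries.

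The MCM helicase genes were the role with the most calls at day 0, with 6 of 7 higher in Susd2-/- cells. Summed over the 7 genes, WT cells held 531 and 529 CPM and Susd2-/- cells 676 and 647 CPM. Of the 6 genes of the ring, which form 1 complex in equal amounts, 5 were called and their median difference was 0.36 on the log2 scale. Mcm3 was at 83.6 and 80.8 CPM in WT and at 113 CPM in both Susd2-/- libraries, a difference of 0.46 ± 0.06 (SE, edgeR adjusted p = 3.5e-05). Mcm2 was at 69.5 and 76.4 CPM in WT and 104 and 90.7 CPM in Susd2-/- cells, and Mcm5 at 71.5 and 65.5 CPM against 88.0 and 90.1 CPM. No library of 1 genotype reached into the range of the other for these 3 genes.

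The remaining ring genes differed by less. Mcm4 differed by 0.34 on the log2 scale (edgeR adjusted p = 0.000707), Mcm6 by 0.21 (adjusted p = 0.0156) and Mcm7 by 0.17 (adjusted p = 0.0543, not called). Mcm6, the highest of the 3, was at 127 and 128 CPM in WT and 152 and 143 CPM in Susd2-/- cells. The call of Mcm6 was lost without WT day 0 library 3 (adjusted p = 0.135), without WT day 0 library 4 (0.114), without Susd2-/- day 0 library 3 (0.142) and with no filter on low counts (0.0918), and over all alternatives its adjusted p ran from 0.00176 to 0.5. At day 3 the ring genes were at 111 CPM per kb of transcript for Mcm4, 138 for Mcm2, 190 for Mcm7, 211 for Mcm5, 234 for Mcm3 and 242 for Mcm6 in WT cells. In WT day 0 cells the same genes ran from 20.3 CPM per kb for Mcm5 to 43.9 for Mcm6.

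Mcm10, a replication factor outside the ring that acts when the helicase is activated, had a day 0 difference close to that of Cdc6. It was at 2.47 and 3.24 CPM in WT and 6.39 and 5.54 CPM in Susd2-/- cells at day 0, and at 200 and 188 CPM against 195 and 206 CPM at day 3. The Susd2-/- libraries were above both WT libraries at day 0, by 1.07 ± 0.14 on the log2 scale (SE, edgeR adjusted p = 1.5e-05), and the groups overlapped at day 3. Its rise on stimulation in WT was the largest of the set, 6.09 on the log2 scale or 68.2-fold, against 33.5-fold in Susd2-/- cells. The interaction of Mcm10 was -1.03 (adjusted p = 0.000269).

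Among the helicase activation genes, Dbf4 and Cdc45 were higher in Susd2-/- cells and the other 5 were not called. Dbf4, the regulatory subunit of the Cdc7 kinase, was at 40.7 and 41.8 CPM in WT and 71.7 and 73.9 CPM in Susd2-/- cells at day 0, and at 99.7 and 97.9 CPM against 106 and 110 CPM at day 3. Its groups were well apart at day 0, and both Susd2-/- libraries were also above both WT libraries at day 3, by an estimate of 0.13 that was not called (adjusted p = 0.662). The day 0 difference was 0.82 ± 0.07 on the log2 scale (SE, edgeR adjusted p = 1.85e-07), the smallest adjusted p of the set, and the interaction -0.69 (adjusted p = 0.000115). Dbf4 in Susd2-/- cells at day 0 stood at 73.6% of its WT day 3 level, against 41.7% in WT cells, and its rise on stimulation was 1.48-fold in Susd2-/- cells, the smallest of the set in that genotype. Its partner Cdc7 was at 23.6 and 21.7 CPM in WT and 26.9 and 23.9 CPM in Susd2-/- cells, a difference of 0.17 that was not called (adjusted p = 0.237).

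Cdc45, a helicase cofactor, was at 5.44 and 6.66 CPM in WT and 8.70 and 7.42 CPM in Susd2-/- cells at day 0, a difference of 0.42 ± 0.12 on the log2 scale (SE, edgeR adjusted p = 0.0152). This call was lost without WT day 0 library 3 (adjusted p = 0.224), without Susd2-/- day 0 library 3 (0.18) and with the day 0 libraries fitted alone, and over all alternatives its adjusted p ran from 0.00673 to 0.224. None of the 4 GINS genes, whose products make up 1 complex with Cdc45 and the ring, was called at day 0 by edgeR or DESeq2, and 1 had an unadjusted p under 0.05. Their estimates ran from -0.20 for Gins3 to 0.19 for Gins1. Gins4 was at 36.7 and 35.8 CPM in WT and 32.2 and 32.4 CPM in Susd2-/- cells, and at 72.1 to 75.9 CPM in the 4 day 3 libraries. The GINS subunits did not rise alike, with 28.8-fold for Gins2 and 22.1-fold for Gins1 but 2.65-fold for Gins3 and 2.04-fold for Gins4 in WT. Counts of Gins2 are uncertain, because 67.3% of its exonic bases overlap the antisense gene Gse1 and the strand setting of the counting is not given in the sources used here.

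The sliding clamp and its loader were not called at day 0 in any of 6 genes by edgeR or DESeq2, 2 had an unadjusted p under 0.05, and their median estimate was -0.03. Pcna, the clamp that tethers polymerases to DNA, was at 239 and 233 CPM in WT and 221 and 214 CPM in Susd2-/- cells at day 0, and at 872 and 867 CPM against 867 and 929 CPM at day 3. Both Susd2-/- libraries were below both WT libraries at day 0, with an estimate of -0.12 ± 0.06 on the log2 scale (SE, edgeR adjusted p = 0.156). Pcna had the highest CPM of the set in every group and the highest level per length, 573 CPM per kb in WT at day 3, and pseudogene copies in the annotation (Pcna-ps1 and Pcna-ps2) leave its count uncertain. The clamp loader genes had estimates from -0.26 for Rfc4 to 0.25 for Rfc3 at day 0, with Rfc1, Rfc2 and Rfc5 between them. Rfc4 was at 10.6 and 12.0 CPM in WT and 8.86 and 10.1 CPM in Susd2-/- cells, and at 65.7 and 71.2 CPM against 69.6 and 72.9 CPM at day 3.

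The single-strand binding protein RPA held the only lower call of the set. Rpa3, its smallest subunit, was at 24.6 and 22.3 CPM in WT and 16.9 and 13.9 CPM in Susd2-/- cells at day 0, and at 54.9 and 50.7 CPM against 51.6 and 57.5 CPM at day 3. The Susd2-/- libraries were below both WT libraries at day 0, and the genotypes overlapped at day 3. The day 0 difference of Rpa3 was -0.60 ± 0.11 on the log2 scale (SE, edgeR adjusted p = 0.000626) and its interaction 0.65 (adjusted p = 0.00703). The interaction call was lost without WT day 0 library 3 (adjusted p = 0.0557) and without Susd2-/- day 0 library 4 (0.0604), with a range of 0.000214 to 0.0675 over all alternatives. The other subunits were not called, with -0.10 for Rpa1 and 0.11 for Rpa2. Rpa1 was at 205 and 203 CPM in WT and 191 and 188 CPM in Susd2-/- cells at day 0, and at 314 to 331 CPM in the 4 day 3 libraries. Its rise in WT, 1.57-fold, was the smallest of the set.

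Of the 8 primase and polymerase genes, Pold1, Pole and Prim1 were higher in Susd2-/- cells at day 0. Pold1, the catalytic subunit of polymerase delta, was at 51.7 and 51.3 CPM in WT and 69.0 and 69.8 CPM in Susd2-/- cells at day 0, and at 229 and 253 CPM against 228 and 218 CPM at day 3. At day 3 both Susd2-/- libraries were below both WT libraries, the opposite of day 0, by an estimate of -0.11 that was not called (adjusted p = 0.714). The day 0 difference of Pold1 was 0.43 ± 0.07 on the log2 scale (SE, edgeR adjusted p = 0.000168), and its interaction -0.54 (adjusted p = 0.00089). Pole, the catalytic subunit of polymerase epsilon, was at 20.1 and 18.0 CPM in WT and 23.7 and 24.2 CPM in Susd2-/- cells, a difference of 0.33 (adjusted p = 0.00479). This call was lost without WT day 0 library 4 (adjusted p = 0.104) and with the length trend removed, and over all alternatives its adjusted p ran from 0.00174 to 0.214.

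The accessory subunits of those polymerases did not pass the test. Pold2 had an estimate of -0.07 and Pole2 of -0.17, and Pole2 was at 17.1 and 17.0 CPM in WT and 14.6 and 15.8 CPM in Susd2-/- cells. Pole2 reached 27.3 to 30.9 CPM at day 3, a 1.62-fold rise in WT, while Pole rose 9.18-fold. Prim1, the catalytic primase subunit, was at 21.4 and 21.7 CPM in WT and 26.1 and 27.2 CPM in Susd2-/- cells, a difference of 0.30 (edgeR adjusted p = 0.0135). The call of Prim1 was lost without WT day 0 library 3 (adjusted p = 0.0993), without WT day 0 library 4 (0.0749) and without Susd2-/- day 0 library 4 (0.11), and over all alternatives its adjusted p ran from 0.00592 to 0.329. Pola1, Pola2 and Prim2, the other subunits of the primase complex, had estimates from -0.10 to 0.08.

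Lig1, the ligase that seals Okazaki fragments, was at 28.2 and 28.7 CPM in WT and 40.1 and 41.5 CPM in Susd2-/- cells at day 0, and at 405 and 376 CPM against 391 and 402 CPM at day 3. The groups were apart at day 0 and overlapped at day 3. The day 0 difference of Lig1 was 0.52 ± 0.07 on the log2 scale (SE, edgeR adjusted p = 2.24e-05) and its interaction -0.50 (adjusted p = 0.00125). Fen1, the flap endonuclease of the same step, was at 1.28 and 1.91 CPM in WT and 1.99 and 2.22 CPM in Susd2-/- cells and was not called. Fen1 stood at 5.95 CPM per kb in WT at day 3, the lowest level per length of the set, and 84.2% of its exonic bases overlap antisense genes, so its count is uncertain.

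The dNTP synthesis genes had the highest median rise of the 10 roles, 4.13 on the log2 scale in WT and 3.73 in Susd2-/- cells. Rrm2, the S phase subunit of ribonucleotide reductase, was at 11.9 and 11.7 CPM in WT and 21.5 and 21.7 CPM in Susd2-/- cells at day 0, and at 511 and 458 CPM against 497 and 521 CPM at day 3. The day 0 groups were far apart relative to their spread, by 0.87 ± 0.08 on the log2 scale (SE, edgeR adjusted p = 4.78e-07), and the interaction was -0.80 (adjusted p = 5.55e-05). Its partner subunit Rrm1 was at 44.4 and 43.9 CPM in WT and 49.1 and 49.9 CPM in Susd2-/- cells, an estimate of 0.16 that was not called (adjusted p = 0.0785). Rrm1 and Rrm2 reached 164 and 221 CPM per kb in WT at day 3 from 11.1 and 5.39 CPM per kb at day 0.

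Tyms, thymidylate synthase, was at 7.56 and 6.46 CPM in WT and 9.68 and 8.58 CPM in Susd2-/- cells at day 0, a difference of 0.38 ± 0.11 on the log2 scale (SE, edgeR adjusted p = 0.0147). Its call was lost without WT day 0 library 4 (adjusted p = 0.182), without Susd2-/- day 0 library 3 (0.157) and with the day 0 libraries fitted alone, and over all alternatives its adjusted p ran from 0.00778 to 0.209. A processed copy (Tyms-ps) in the annotation leaves its count uncertain. The thymidine kinase Tk1 had an estimate of 0.22 and the dUTPase Dut of 0.06, and neither was called. Dut was at 29.5 and 29.3 CPM in WT and 30.9 and 30.6 CPM in Susd2-/- cells, and rose 11.9-fold in WT and 12.2-fold in Susd2-/- cells.

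Clspn (claspin), which links the fork to the checkpoint kinase Chek1, was at 10.3 and 7.86 CPM in WT and 15.5 and 13.9 CPM in Susd2-/- cells at day 0, and at 163 to 172 CPM in the 4 day 3 libraries. The groups did not overlap at day 0, with a difference of 0.69 ± 0.11 on the log2 scale (SE, edgeR adjusted p = 0.000185) and an interaction of -0.66 (adjusted p = 0.00397). Timeless, the other fork protection gene, was not called, at 39.0 and 37.8 CPM in WT and 35.0 and 32.4 CPM in Susd2-/- cells (-0.19, adjusted p = 0.0668).

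Chaf1a is the large subunit of the chromatin assembly factor CAF-1. It was at 6.66 and 7.00 CPM in WT and 12.8 and 10.2 CPM in Susd2-/- cells at day 0, and at 200 and 201 CPM in WT and 201 and 145 CPM in Susd2-/- cells at day 3. The low library at day 3 was Susd2-/- library 2, in which both sequencing lanes were low. The day 0 difference of Chaf1a was 0.76 ± 0.22 on the log2 scale (SE, edgeR adjusted p = 0.0514) and was not called. It was called without either of the Susd2-/- day 3 libraries, with an adjusted p of 8.84e-05 without library 1 and 9.22e-05 without library 2, and over all alternatives the adjusted p ran from 8.49e-09 to 0.204. At day 3 Chaf1a was not called, except without Susd2-/- day 3 library 1, where it was lower by an estimate of -0.47 (adjusted p = 0.00682). Of its exonic bases 52.5% overlap the antisense gene Ubxn6. Chaf1b, its partner, was at 16.2 and 16.3 CPM in WT and 15.0 and 12.5 CPM in Susd2-/- cells and was not called.

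Seen against the activated level, the day 0 difference was small for most genes. The median member at day 0 stood at 17.2% of its WT day 3 level in WT cells and at 18.6% in Susd2-/- cells. Cdc6 was at 1.91% in WT and 4.07% in Susd2-/- cells, Rrm2 at 2.44% and 4.46%, and Mcm10 at 1.47% and 3.07%. Besides Dbf4, given above, Cdt1 and Rpa3 were furthest apart in percentage points. Cdt1 was at 40.8% in WT and 55.7% in Susd2-/- cells, and Rpa3 at 44.3% and 29.2%. The 17 genes higher at day 0 had a median of 10.9% in WT, against 19.2% for the 30 genes not called, with ranges of 1.47% to 41.7% and 1.96% to 63.9% that overlapped widely.

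**Figure D4:**
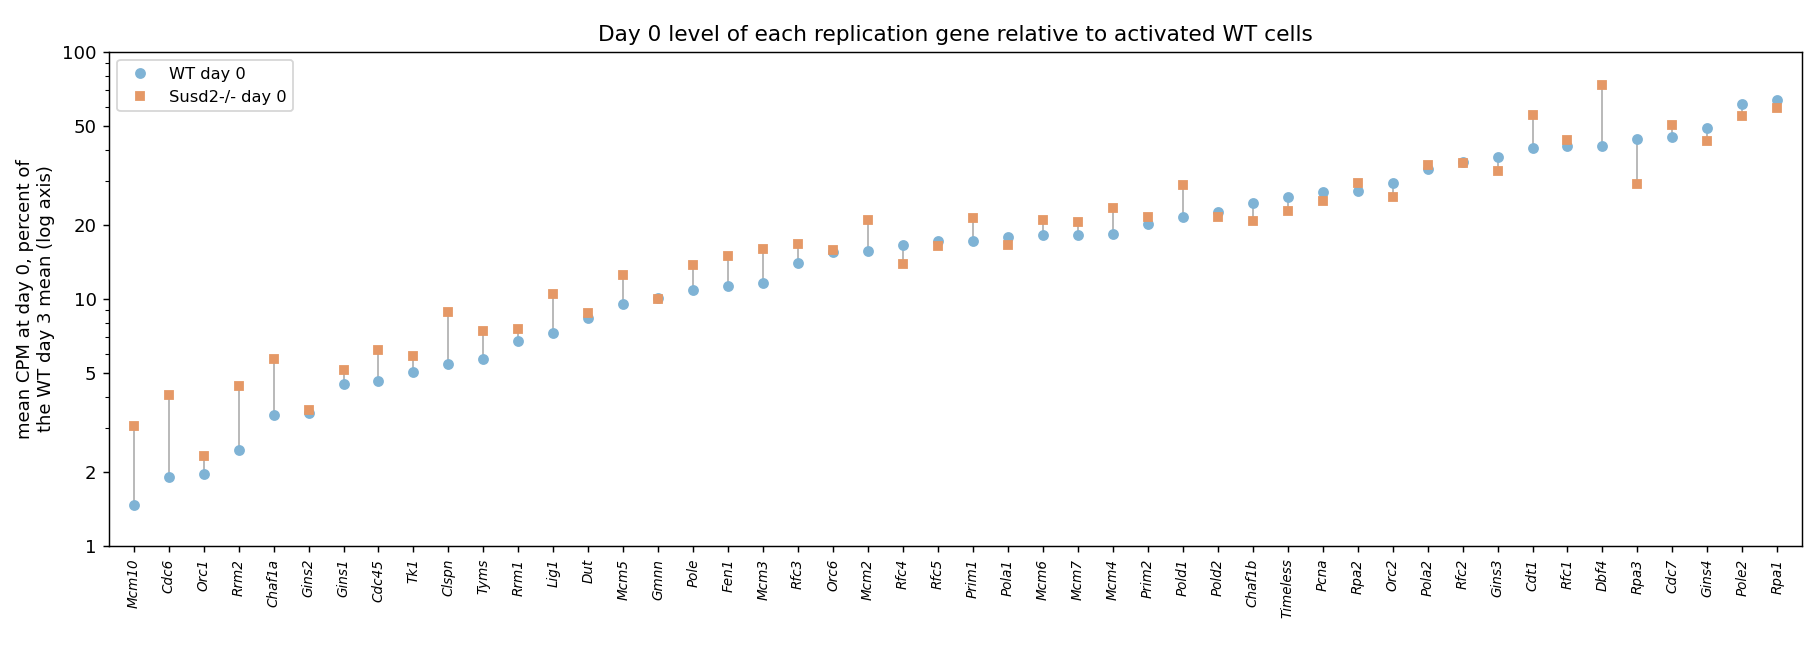
Mean day 0 level of each gene in WT and Susd2-/- cells as percent of its WT day 3 mean, on a log axis, with genes ordered by the WT value. The values run from 1.47% for Mcm10 to 63.9% for Rpa1 in WT, and the line between the points of a gene is longest for Mcm10 and Cdc6 among genes higher in Susd2-/- cells.

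Other genes of the pathway came from lists set by function, and their counts at day 0 stand beside the 11.5% of all genes called higher and 12.1% called lower. Of 12 further origin and helicase genes, edgeR called 1 higher and 1 lower in Susd2-/- cells at day 0, and DESeq2 called 3 higher and 0 lower. Ticrr (Treslin), which loads Cdc45, was at 3.03 and 3.59 CPM in WT and 7.91 and 7.49 CPM in Susd2-/- cells. Its difference was 1.22 on the log2 scale. Orc5 differed by -0.31, a call that DESeq2 did not make. Of 22 further polymerase and fork genes, 5 were higher and 2 lower by edgeR, and 5 higher and 1 lower by DESeq2. Among those called by edgeR were Uhrf1, which guides maintenance of DNA methylation (0.64), the histone chaperone Asf1b (0.72) and Rnaseh2c, a subunit of ribonuclease H2 (-0.50). Of 8 S phase checkpoint genes, 2 were higher, the kinases Chek1 (0.96) and Wee1 (0.90), and 1 was lower, Rad1 (-0.51). No gene of these lists was called for genotype at day 3 by edgeR or DESeq2, where edgeR called 0.137% of all genes. There, 2 of the polymerase and fork genes had an unadjusted p under 0.05.

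Among 12 further genes of dNTP supply and removal, 2 were higher and 4 lower in Susd2-/- cells at day 0, beside 11.5% and 12.1% of all genes. DESeq2 called 2 higher and 3 lower. The genes named here are all among the 4 lower by edgeR, and the 2 higher ones are not named. Samhd1, which hydrolyses dNTPs and is high in resting cells, was at 476 and 470 CPM in WT and 402 and 401 CPM in Susd2-/- cells at day 0, and at 258 to 311 CPM in the 4 day 3 libraries. Its day 0 difference was -0.24 on the log2 scale (edgeR adjusted p = 0.0227), and it fell by 0.73 on stimulation in WT. Rrm2b, the ribonucleotide reductase subunit of resting and damaged cells, was at 31.6 and 31.4 CPM in WT and 22.6 and 19.6 CPM in Susd2-/- cells (-0.58), opposite to Rrm2. Dctpp1, a dCTP pyrophosphatase, was also lower (-0.63). Of 15 ribonucleotide synthesis genes, 4 were higher, among them Cad (0.28) and Ctps (0.34), and 2 were lower, among them Ppat (-0.38). DESeq2 called 6 of these higher and 2 lower.

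The mitosis genes were set beside the replication genes as a second cell cycle list. Of those 20 genes, 19 were higher in Susd2-/- cells at day 0, where 11.5% of all genes were called higher. The median of the 20 was 0.80 on the log2 scale, and Ccnb1 was not called. Their summed level was 311 and 319 CPM in WT and 577 and 592 CPM in Susd2-/- cells, a ratio of 1.85, against 1.11 for the 48 replication genes. Mki67, the proliferation antigen, was at 67.8 and 66.9 CPM in WT and 135 and 152 CPM in Susd2-/- cells. At day 3 none of the 20 was called for genotype by edgeR or DESeq2, and none had an unadjusted p under 0.05. Of all genes, edgeR called 0.137% there in either direction. The difference in size between the mitosis and the replication genes is a description and was not tested.

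Some markers of other cells differed with genotype at day 0 as well, where 11.5% of all genes were called higher and 12.1% lower. The 10 monocyte and macrophage markers summed to 52.1 and 53.6 CPM in the WT day 0 libraries and 112 and 106 CPM in the Susd2-/- day 0 libraries, with 6 of 10 called higher, and to 1.87 to 3.50 CPM at day 3. Csf1r, which defines these cells, was at 9.59 and 9.73 CPM in WT and 23.3 and 22.7 CPM in Susd2-/- cells at day 0. The 5 progenitor markers summed to 5.88 to 7.72 CPM in WT and 12.4 to 14.8 CPM in Susd2-/- cells, with Kit alone called. The 8 neutrophil markers summed to 1.09 to 1.37 CPM against 3.04 to 3.21 CPM. Only 2 of these 8 passed the filter on low counts, and edgeR called 1, Mpo, where DESeq2 called none. In these 3 lists the genotypes did not overlap at day 0. The B cell list had 1 of 8 called higher by edgeR, Pax5, and none by DESeq2, and its sums overlapped. The CD8 T cell markers summed to 4895 to 4909 CPM in WT and 4416 to 4692 CPM in Susd2-/- cells, with 1 of 8 higher and 3 lower. The 7 plasma cell genes summed at day 0 to 56.0 to 57.1 CPM in WT and 86.6 to 92.8 CPM in Susd2-/- libraries. Of the 5 that were tested, 3 were higher and 1, Jchain, was lower. On stimulation 4 of the 5 rose in WT and 1 fell. Their sum was 715 to 787 CPM at day 3, so this list cannot be read as plasma cells alone. At day 0 the 5 NK cell genes summed to 31.9 to 32.7 CPM in WT against 20.9 to 24.0 CPM, with 1 lower by edgeR and none by DESeq2. The 5 CD4 and regulatory T cell genes summed to 57.6 to 60.0 against 72.8 to 81.5 CPM, with 1 higher, Ikzf2. The 11 erythroid genes summed to 121 to 126 against 136 to 152 CPM, of which Tfrc, which T cells also express, gave means of 109 and 129 CPM. Of the 7 erythroid genes tested, 1 was called higher and 1 lower. The 6 megakaryocyte genes summed to 11.9 to 12.8 against 13.0 to 13.4 CPM, with none called by edgeR or DESeq2 and none at an unadjusted p under 0.05. The part of these cells in the replication gene differences was not tested, and in bulk RNA fewer cells of a type and less RNA per cell cannot be told apart.

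Of the 18 members called for genotype at day 0, 7 were called in all 16 alternatives, 1 of which has no replicates at day 0, namely Cdc6, Mcm10, Dbf4, Rpa3, Lig1, Rrm2 and Clspn. Of the 14 called in the interaction, 4 were called in all 15 alternatives, namely Cdc6, Mcm10, Dbf4 and Rrm2. The rise on stimulation was called for all 48 genes in each alternative and genotype. No member called in a comparison changed sign in any alternative. When each day 0 group was reduced to 1 summed library, which leaves the day 0 comparison no spread of its own and assumes that of day 3, Chaf1a was among the 7 members higher at day 0.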

How the data were processed

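Per the labels' protocols, stranded libraries of poly(A) RNA were sequenced with paired ends. The authors deposited raw counts per gene, without normalization. Tools named in the submitters' processing notes are fastp 0.23.2, HISAT2 2.1.0, SAMtools 1.10 and Subread 2.0.1, and the build is GRCm38. How strand and multiply aligned reads were treated, and with which annotation, is not given in the sources used here, so genes overlapped by an antisense gene or with near-identical copies have uncertain counts.

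The sample titles number the 15 columns as replicates of their group. The column names carry a library number and a lane number, so the columns were read as lanes of 8 libraries. Lanes of a library were summed (2 lanes for 7 libraries, 1 lane for library 2 of WT day 3). Chi-square over its degrees of freedom, over genes with at least 20 counts, was 3.01 to 3.17 between lanes. Between libraries it was 3.37 (WT) and 6.30 (Susd2-/-) at day 0 and 12.5 (WT) and 16.0 (Susd2-/-) at day 3. Because the WT day 0 libraries were nearly as alike as lanes, an alternative counts each day 0 group as 1. In each lane more genes had a count of 2 than of 1, by 1.69 to 2.04 times, so counts are not independent fragments.

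One fit over the 4 groups was made with edgeR 4.0.16 in R 4.3.3 (TMM, filterByExpr, robust quasi-likelihood test, 4 residual degrees of freedom), with Benjamini-Hochberg adjustment over 16057 genes and a threshold of 0.05. DESeq2 1.42.0 was an alternative, and the test was tried on simulated data first. Each SE is the absolute log2 fold change over the root of F. CPM per kb used the principal transcript of GENCODE M21. Library numbers did not pair the samples (correlation of deviations -0.0104 at day 3 and 0.00859 at day 0).

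Values in every library are given, within each role, for the member of highest mean CPM and that of smallest day 0 adjusted p, for members called in the interaction or against the main direction, and for the 5 largest and 5 smallest rises in WT. Values of other members were added for comparison. Of other pathway lists, up to 4 genes of smallest day 0 adjusted p could be named. Ccnb1, and the marker genes beside the replication results, were named outside that rule after their values were seen. The members and lists were chosen with earlier results of these data known. Total-count scaling was an alternative added after seeing the data.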

Additional observations from a re-analysis of the deposited data

Results flagged for a closer look

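For 14 members the genotype difference at day 3 differed from that at day 0 by the test of the interaction itself (edgeR's quasi-likelihood test, 2 libraries per group). The values are the log2 genotype difference at day 3 minus that at day 0. Among licensing and helicase genes it was -1.06 for Cdc6, -0.45 for Cdt1, -0.44 for Mcm2, -0.43 for Mcm3, -0.31 for Mcm5, -1.03 for Mcm10 and -0.69 for Dbf4. Among polymerase, ligase and fork genes it was -0.54 for Pold1, -0.38 for Pole, -0.50 for Lig1 and -0.66 for Clspn. Among dNTP synthesis genes it was -0.80 for Rrm2 and -0.41 for Tyms. Rpa3 alone had a positive value, 0.65. For each of these genes the day 0 libraries of the genotypes did not overlap. Of all genes, 33.6% had both Susd2-/- libraries higher at day 0 and 31.4% both lower. All 14 were also called for genotype at day 0 from the same libraries, so this adds no support. The interaction calls of 5 genes were lost when a single library was left out. Adjusted p was then 0.0525 to 0.0774 for Mcm2 (without Susd2-/- or WT day 0 library 3) and 0.0557 to 0.0604 for Rpa3 (without WT day 0 library 3 or Susd2-/- day 0 library 4). It was 0.0514 to 0.186 for Mcm5 (without WT day 0 library 4, either Susd2-/- day 0 library or Susd2-/- day 3 library 1). For Pole it was 0.0532 to 0.147 (without WT day 0 library 4, either Susd2-/- day 0 library or Susd2-/- day 3 library 2). For Tyms it was 0.0551 to 0.251, in each case but that without WT day 0 library 3.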

How the results depend on the processing

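Each result was recomputed with other size factors, no filter on low counts, a replicate block, the libraries of each day alone, the day 0 libraries counted as 1, the length trend removed, DESeq2, total-count scaling and each library left out in turn. All 48 genes rose on stimulation in both genotypes under each of these that could be run for it.

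With the day 0 libraries counted as 1, where only the day 3 libraries give the spread, 7 members were higher at day 0, the interaction had 5 lower and 0 higher, and its median was -0.0916. Members lower at day 0 were 4 with the day 0 libraries alone and 2 with the length trend removed. Without a filter the interaction had 2 higher members and a median of -0.0733, and the median rise in Susd2-/- cells was 2.52. The median rise was 2.36 in WT and 2.24 in Susd2-/- cells with total-count scaling, which shifts all genes by -0.18 and -0.20, and 2.60 and 2.49 with the length trend removed.

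Leaving out single libraries, members higher at day 0 ran from 13 to 19 and lower from 1 to 2 (2 without Susd2-/- day 0 library 3 or WT day 3 library 2), and lower at day 3 from 0 to 1 (Chaf1a without Susd2-/- day 3 library 1). The median rise ran from 2.50 to 2.63 in WT and from 2.36 to 2.56 in Susd2-/- cells. The interaction had 9 to 14 lower and 0 to 2 higher members (0 without WT day 0 library 3 or Susd2-/- day 0 library 4, 2 without WT day 3 library 1 or Susd2-/- day 3 library 1) with medians from -0.192 to -0.0904. With the replicate block, whose numbers did not pair the samples, 18 members were higher and 1 lower at day 0. The interaction of Tyms was called in 4 of 15 alternatives, Pole in 8, Mcm5 in 9, and Mcm2 and Rpa3 in 12 each. Why calls changed was not tested. With 2 libraries per group, and genes such as Orc1, Mcm10 and Cdc6 at a few CPM at day 0, small differences would not be detected.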
